A study of Homo sapiens with 16 samples.

Results

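The genes described here encode the matrix metalloproteinases (MMP), the ADAM and ADAMTS metalloproteases and their tissue inhibitors (TIMP). With earlier results of these data known, members were chosen by symbol. They were every gene of the count table named MMP, ADAM, ADAMTS or TIMP followed by its number, with an optional letter for the MMPs. This gave 68 of 28374 genes: 23 MMP, 22 ADAM, 19 ADAMTS and 4 TIMP genes. Of these, 54 had enough counts to be tested: 16 MMP, 15 ADAM, all 19 ADAMTS and all 4 TIMP genes. The other 14 were MMP7, MMP8, MMP9, MMP10, MMP20, MMP23B, MMP26, ADAM2, ADAM5, ADAM6, ADAM7, ADAM18, ADAM29 and ADAM30.

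Total RNA depleted of ribosomal RNA was sequenced from CCD-1070Sk, an established line of human skin fibroblasts, made quiescent by serum starvation. EGF libraries came from cells given epidermal growth factor at 30 ng/ml for 1 h, and TPA libraries from cells given the phorbol ester TPA, an activator of protein kinase C, at 100 nM for 1 h. EGF+H89 and TPA+H89 cells had 30 min with 10 µM H89 before the same 1 h with the mitogen. H89, which inhibits the kinases MSK1 and MSK2 and protein kinase A, was also given alone for 30 min (recorded as 0 h), and control cells were untreated at 0 h. The time spent in H89 may thus differ between H89 and the groups that also had a mitogen. After 1 of 2 control samples with identical counts at all 19340 detected genes was set aside, 15 libraries remained: 3 EGF, 2 TPA, 2 EGF+H89, 2 TPA+H89, 3 H89 and 3 control. All came from a single cell line, and the labels do not say that libraries of a group came from separate cultures, and p-values can reflect only how far libraries of a group differ, which may be technical variation.

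MMPs are zinc-dependent enzymes that cut extracellular matrix; the collagenase MMP1 opens fibrillar collagen, the gelatinase MMP2 degrades denatured collagen, and MMP14 sits in the plasma membrane and activates pro-MMP2. ADAMs are mostly membrane proteins, several of which shed other membrane proteins; ADAM17 and ADAM10 release growth factor precursors and receptors. ADAMTS enzymes are secreted, and members such as ADAMTS1, ADAMTS4 and ADAMTS5 cleave proteoglycans. TIMPs bind the active site of these proteases. Several MMP promoters and that of TIMP1 carry sites for AP-1 (FOS and JUN dimers) and ETS factors, which growth factors and phorbol esters activate.

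Promoter windows of the inhibitors are shown because TIMP1 had the lowest p-value of any member in TPA against control, while TIMP3 and TIMP4 belong to the same small family. Each window runs from 250 bases before to 50 bases after the RefSeq gene start on GRCh38.p14, 5′ to 3′ on the gene's strand. Capitals mark the AP-1 variant motif TGAGTAA and the ETS core AGGAAG, each searched on both strands. TIMP1 lies at chrX:47582186-47582485 on the plus strand, TIMP3 at chr22:32801455-32801754 on the plus strand and TIMP4 at chr3:12158863-12159162 on the minus strand.
TIMP1: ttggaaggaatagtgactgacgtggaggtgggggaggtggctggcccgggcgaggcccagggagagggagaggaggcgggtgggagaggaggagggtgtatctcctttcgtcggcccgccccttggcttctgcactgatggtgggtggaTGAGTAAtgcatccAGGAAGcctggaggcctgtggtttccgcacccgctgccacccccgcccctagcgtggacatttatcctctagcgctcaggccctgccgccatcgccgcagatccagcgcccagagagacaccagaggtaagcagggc
TIMP3: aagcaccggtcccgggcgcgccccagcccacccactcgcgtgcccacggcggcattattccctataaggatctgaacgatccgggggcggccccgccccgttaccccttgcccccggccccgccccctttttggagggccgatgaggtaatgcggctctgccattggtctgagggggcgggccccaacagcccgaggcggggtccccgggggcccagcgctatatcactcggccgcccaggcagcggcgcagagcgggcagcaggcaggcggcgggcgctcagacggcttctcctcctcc
TIMP4: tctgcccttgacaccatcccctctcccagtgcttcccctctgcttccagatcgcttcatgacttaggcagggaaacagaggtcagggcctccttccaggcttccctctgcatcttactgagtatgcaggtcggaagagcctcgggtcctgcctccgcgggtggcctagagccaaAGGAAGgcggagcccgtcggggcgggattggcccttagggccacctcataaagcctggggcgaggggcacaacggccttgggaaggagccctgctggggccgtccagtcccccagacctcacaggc
In the TIMP1 window TGAGTAA begins 101 bases and AGGAAG 87 bases before the start. The TIMP4 window holds AGGAAG beginning 76 bases before the start, and neither motif nor the AP-1 consensus TGAGTCA is in the TIMP3 window. RefSeq promoters were matched for 39 of the 68 members. TIMP2, MMP1, MMP3 and ADAMTS1 were among those without a match, so their promoters were not searched. Among those 39, TGAGTAA was in 1 (TIMP1), TGAGTCA in 1 (MMP7), AGGAAG in 10 and the Sp1-type box GGGCGG in 26. Over all 35116 promoters of the table the shares were 2.57% for TGAGTAA, 4.95% for TGAGTCA, 33.65% for AGGAAG and 44.95% for GGGCGG. A match describes letters in the window and not a bound site.

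Library totals ran from 7527026 counts (TPA+H89 1) to 130075914 counts (TPA 2), and the 68 members took 0.394% to 0.898% of each library's counts. Libraries fell into 3 sets by the share of counts at RNR1 and RNR2, which the labels do not tie to a run or platform. Set A was EGF 1 and control 1 (0.0183% and 4.48%), set B was the first TPA, EGF+H89, TPA+H89 and H89 libraries with EGF 2 and control 2 (11.7% to 30.4%), and set C the other 7 libraries (0%). Within set B, TPA 1 (11.7%) and TPA+H89 1 (12%) had lower shares than the rest (24.8% to 30.4%). Set B differences between libraries with and without TPA therefore cannot be told apart from this split. TPA, EGF+H89 and TPA+H89 have a single library in set B and a single one in set C, so within-set differences of these groups rest on few libraries and have no test. Fibroblast identity matched the label: all 10 fibroblast markers were above 1 CPM (the count scaled to library size) in every library, summing to 27624 to 54959 CPM. Keratinocyte markers (5 genes) summed to 6.71 to 47.8 CPM, 4 endothelial ones to 1.96 to 6.65 CPM, 4 melanocyte ones to 1.1 to 4.01 CPM and 5 leukocyte ones to 10.2 to 66.4 CPM. In bulk RNA, fewer expressing cells and less RNA per cell cannot be told apart.

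In untreated fibroblasts 39 of the 68 members averaged at least 1 CPM (CPM scaled by TMM, the trimmed mean of M values). Divided by exon length, the inhibitors and a few proteases stood highest. TIMP1 had 507 ± 182, TIMP3 308 ± 12.8, MMP2 205 ± 116, MMP14 188 ± 79.9 and TIMP2 162 ± 72.4 CPM per kb (mean ± SD, n = 3 control libraries). MMP1 followed at 114 ± 79.2, ADAM33 at 112 ± 14.7, ADAM9 at 75.2 ± 17.6, ADAMTS1 at 46.9 ± 10.4 and ADAMTS2 at 30.0 ± 20.6 CPM per kb. The control libraries ranged from 378 to 715 CPM per kb for TIMP1 and from 300.04 to 323 CPM per kb for TIMP3, so these ranges did not overlap. From MMP2 down to ADAM33, each gene differed from its neighbour by less than the larger of their 2 SDs. Exon lengths came from GENCODE release 29 on GRCh38, which is not the annotation the counts were made with, so the order is approximate.

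No member passed the test in any comparison. With edgeR's quasi-likelihood test and Benjamini-Hochberg adjustment over 18575 genes at 0.05, 0 of the 54 tested members were called in TPA against control, where 0.415% of all tested genes were. The same count of 0 was found in EGF against control (background 0.0269%), TPA+H89 against H89 (0.0969%) and EGF+H89 against H89 (0.0269%). In H89 against control, EGF+H89 against EGF, TPA+H89 against TPA, TPA against EGF and both interactions of mitogen and H89, 0% of all genes were called, so a count of 0 says nothing about the members there. With a term for the library sets 0 members were called as well, while 0.221% of all genes were called in EGF against control, 1.25% in TPA against control, 0.269% in EGF+H89 against H89, 0.431% in TPA+H89 against H89 and 0.334% in TPA against EGF. DESeq2 called 2 members in TPA against control, ADAMTS1 and TIMP1, where it called 2.93% of all genes, and 1 in TPA against EGF, TIMP1, where it called 1.75%. EGF, TPA and H89 were each set against the same 3 control libraries, so their differences from control share those values.

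At an unadjusted p under 0.05 the members' share was set beside that of all genes in each comparison. In TPA against control 9 of 54 members (16.7%) were past it, against 13.2% of all genes; 4 were higher (all genes 7.77%) and 5 lower (5.44%). In EGF against control 1 member (1.85%) was past it, against 1.63% of all genes. For H89 against control the count was 4 (7.41%, against 3.27%), for EGF+H89 against EGF 2 (3.70%, against 1.67%), for TPA+H89 against TPA 6 (11.1%, against 7.00%) and for TPA against EGF 8 (14.8%, against 13.4%). It was 0 for both mitogens with H89 against H89 (all genes 1.53% with EGF and 3.89% with TPA) and for the EGF interaction (0.258%), and 4 for the TPA interaction (7.41%, against 4.78%). The median log2 fold change of the 54 members was -0.06 in TPA against control (all genes -0.02), -0.14 in EGF against control (0.02) and -0.25 in H89 against control (-0.05). Across the 10 comparisons the lowest adjusted p was 0.185, for TIMP1 in TPA against control.

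**Figure D1:**
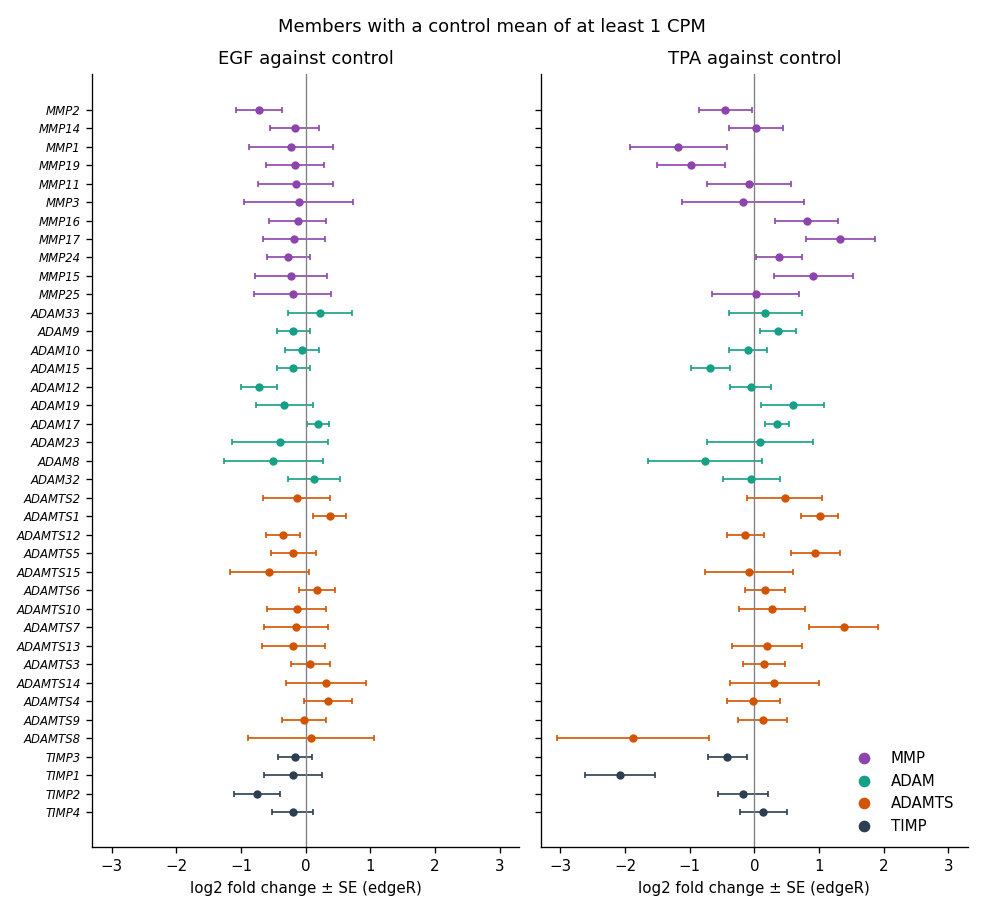
Log2 fold change with its SE (edgeR) for the 39 members averaging at least 1 CPM in control libraries, EGF against control on the left and TPA against control on the right, coloured by family. With TPA, TIMP1 lies lowest at -2.08, while ADAMTS7 at 1.38, MMP17 at 1.33 and ADAMTS1 at 1.01 lie highest; none of them passed the adjusted threshold.

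TIMP1, the inhibitor of most secreted MMPs, stood lower in TPA libraries than in all others except TPA+H89 1. It had 256 and 95.4 CPM in TPA libraries, against 1044, 625 and 552 CPM in control libraries. The groups did not overlap, and both TPA libraries lay well below the lowest control. The log2 fold change was -2.08 ± 0.54 (SE; edgeR, adjusted p = 0.185). Its size within library sets was -1.29 in set B and -2.53 in set C, and with a term for the sets it was -1.96 ± 0.53 (adjusted p = 0.0836). DESeq2, run as an alternative, called it (log2 fold change -2.11, adjusted p = 0.00374) in a comparison where it called 1.12% of all genes lower. Leaving out TPA 1 gave -3.00 (adjusted p = 0.034) and leaving out TPA 2 gave -1.53 (adjusted p = 0.672).

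In EGF libraries TIMP1 had 493, 624 and 833 CPM, a range that overlaps the control range. EGF against control gave -0.19 ± 0.45 (adjusted p = 1), and the sets disagreed, with -1.08 in set A, 0 in set B and 0.59 in set C. Against EGF libraries, TPA libraries were again lower without overlap, by -1.89 ± 0.54 on the log2 scale (adjusted p = 0.302 by edgeR and 0.0239 by DESeq2, which called 0.759% of all genes lower). With H89 before the mitogen, TIMP1 was at 173 and 468 CPM in TPA+H89 libraries, against 256 and 95.4 CPM in TPA libraries. These overlap, and the sets went opposite ways: -0.57 in set B and 2.29 in set C. TPA+H89 1 is the shallowest library, with 948 counts for TIMP1. EGF+H89 libraries had 551 and 833 CPM and H89 libraries 561, 663 and 402 CPM.

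TIMP2, which inhibits MMP2 and also bridges it to MMP14 for activation, had 674 and 489.6 CPM in TPA libraries, against 998, 538 and 448 CPM in control libraries. In EGF libraries it had 229, 494 and 454 CPM. The low EGF library and the high control library are the pair of set A. EGF against control was -0.75 ± 0.35 (adjusted p = 1), made up of -2.12 in set A, -0.12 in set B and 0.02 in set C.

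TIMP3, a matrix-bound inhibitor that also blocks ADAM17 and aggrecan-cleaving ADAMTS enzymes, varied least of the abundant inhibitors. Its levels were 1224 and 899 CPM in TPA, 1064 and 824 CPM in TPA+H89, and 1388, 1380.2 and 1486 CPM in control libraries. All 4 libraries with TPA were below all 3 control libraries, yet TPA against control was only -0.42 ± 0.30 (adjusted p = 0.509). EGF libraries had 1044, 1242 and 1535 CPM, EGF+H89 libraries 1286 and 1296 CPM, and H89 libraries 1204, 1601 and 1051 CPM. TIMP4 was scarce throughout, between 1.72 and 3.64 CPM, with 3.64 and 3.17 CPM in TPA+H89 libraries, against 2.51 and 2.83 CPM in TPA libraries. TPA+H89 against TPA was 0.34 ± 0.40 (adjusted p = 0.95).

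**Figure D2:**
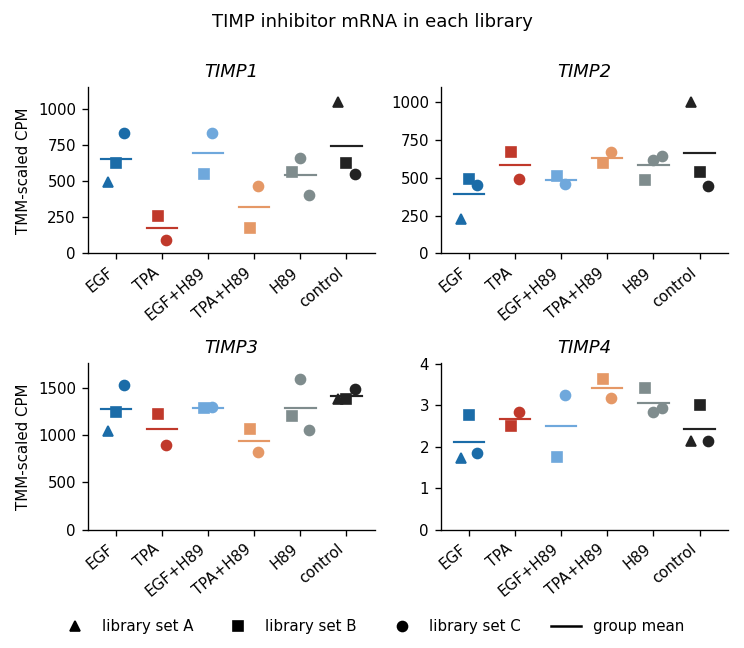
TMM-scaled CPM of TIMP1, TIMP2, TIMP3 and TIMP4 in each of the 15 libraries, by group; symbols mark the library set read from the rRNA share and bars the group mean. TIMP1 in TPA libraries (256 and 95.4 CPM) lies below every control library, whereas TIMP2 in EGF and control libraries spreads mostly through the pair of set A.

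Among the secreted MMPs, the collagenase MMP1 was lower in TPA than in most other libraries but varied widely. It had 113 and 85.1 CPM in TPA libraries, against 62.5, 237 and 374 CPM in control libraries. The low control library, control 1, belongs to set A, whose EGF library was also low at 71.0 CPM. TPA against control was -1.18 ± 0.75 (adjusted p = 0.459), and -1.07 in set B and -2.13 in set C. With a term for the sets it was -1.55 ± 0.49 (adjusted p = 0.121), and without control 3 it was -0.60. MMP1 shares 150 exon bases on the opposite strand with the pseudogene WTAPP1, which had only 0.669 to 3.41 CPM.

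Under H89, MMP1 had 146 and 125 CPM in TPA+H89 libraries, against 376, 632 and 129.9 CPM in H89 libraries. TPA+H89 against H89 was -1.49 ± 0.76 (adjusted p = 1), and the 2 groups overlap only slightly at H89 3. EGF libraries reached 71.0, 283 and 222 CPM and EGF+H89 libraries 227 and 293 CPM. EGF against control was -0.23 ± 0.65 (adjusted p = 1).

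MMP3 (stromelysin 1), which cuts many matrix proteins and activates pro-collagenases, lies beside MMP1 on chromosome 11 and was the most variable of the well-measured MMPs. Its levels spanned 34.7-fold, and the lowest and highest, 2.48 CPM in TPA 2 and 86.1 CPM in H89 2, were both in set C. It had 32.1 and 2.48 CPM in TPA libraries, against 14.7, 7.44 and 36.5 CPM in control libraries. The library sets disagreed in sign for TPA against control, with 2.10 in set B and -3.85 in set C, and the fit gave -0.18 ± 0.94 (adjusted p = 0.948). H89 libraries had 33, 86.1 and 40.3 CPM, and H89 against control was 1.44 ± 0.85 (adjusted p = 1).

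The gelatinase MMP2 was steady apart from a single library. It had 471, 685 and 621 CPM in EGF, 650.2 and 776 CPM in TPA, and 1607, 617 and 691 CPM in control libraries. Control 1, of set A, was more than 2 times any other control library. EGF against control was -0.72 ± 0.36 (adjusted p = 1), with -1.77 in set A, 0.15 in set B and -0.15 in set C. MMP11 (stromelysin 3), with MMP15 and MMP16 outside the naming rule and picked after their values were seen, was likewise high in set A, at 49.2 CPM in EGF 1 and 59.7 CPM in control 1, and also in TPA 2 (44.7 CPM), while every other library had 10.0 to 30.3 CPM.

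MMP19, a widely expressed MMP, is outside the naming rule and was picked out after its values were seen. It had 23.0 and 10.9 CPM in TPA libraries, against 25.7, 39.3 and 35.5 CPM in control libraries, with no overlap. EGF libraries ran from 8.74 to 41.3 CPM, and the lowest of them, EGF 1, was below both TPA libraries and every other library. In the fit with a term for the sets it had the lowest adjusted p of all members, 0.0826, at a log2 fold change of -1.47 ± 0.39, while the fit without the term gave -0.98 ± 0.52 (adjusted p = 0.421). TPA+H89 libraries had 22.0 and 24.9 CPM, below all 3 H89 libraries (33.4, 35.2 and 26.3 CPM).

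**Figure D3:**
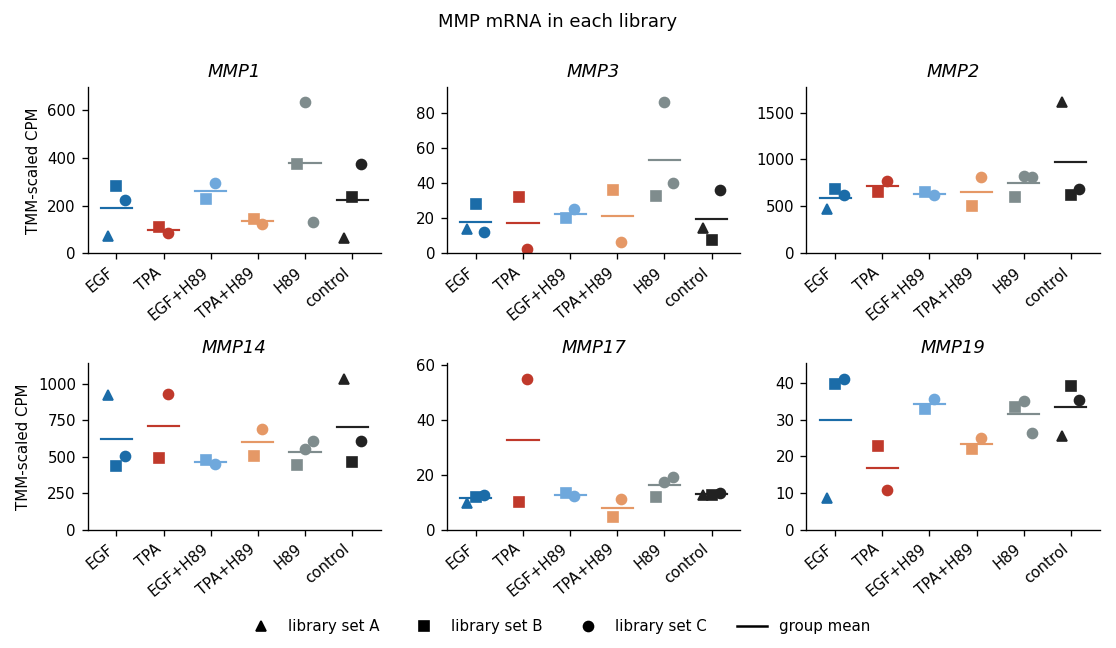
TMM-scaled CPM of MMP1, MMP3, MMP2, MMP14, MMP17 and MMP19 in each library by group, with symbols for the library set and bars for the group mean. MMP2 is set apart by control 1 (1607 CPM) and MMP17 by TPA 2 (55.0 CPM), while MMP1 and MMP19 sit low in TPA and TPA+H89 libraries of sets B and C.

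None of the membrane-type MMPs was called, and in TPA against control their log2 fold changes ran from 0.02 for MMP14 to 1.33 for MMP17. MMP14 had 490.3 and 933 CPM in TPA libraries, against 1036, 462 and 607 CPM in control libraries, and TPA against control was 0.02 ± 0.42 (adjusted p = 0.989). In the EGF libraries it had 924, 436 and 504 CPM, where the highest was again of set A. MMP16 had 35.9 and 24.0 CPM in TPA libraries, above control libraries at 8.64, 21.5 and 21.1 CPM, with a log2 fold change of 0.81 ± 0.49 (adjusted p = 0.446).

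For MMP17, which is anchored to the membrane by a lipid, the TPA difference rested on a single library. It had 9.91 and 55.0 CPM in TPA libraries, against 12.7, 12.8 and 13.4 CPM in control libraries. TPA 1 was below and TPA 2 above all 3 control libraries. The fit gave 1.33 ± 0.53 (adjusted p = 0.333), but -0.38 without TPA 2 and 2.06 without TPA 1 (adjusted p = 0.0159, in a fit that called 4.52% of all genes higher and rests on 1 TPA library). In TPA+H89 libraries MMP17 had 4.56 and 11.3 CPM, against 9.91 and 55.0 CPM in TPA libraries, lower in both sets (-1.11 in B and -2.28 in C). TPA+H89 against TPA was -2.00 ± 0.62 (adjusted p = 0.713), and -0.29 without TPA 2.

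MMP15 followed the same course at a lower level, with 1.15 and 8.33 CPM in TPA libraries, against 3.43, 2.16 and 1.99 CPM in control libraries. MMP24 had 5.28 and 7.6 CPM in TPA+H89 libraries, 8.02 and 16.1 CPM in TPA libraries and 8.10, 11.8 and 8.09 CPM in control libraries. TPA+H89 against TPA was -0.89 ± 0.41 for MMP24 (adjusted p = 0.713). A gene named as its antisense partner, MMP24-AS1, had 8.42 to 36.7 CPM, and whether strand was used in counting is not given, so the MMP24 values are uncertain.

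Of the ADAM proteases, the sheddase ADAM17, which releases HBEGF, TGFA and TNF, varied least, over 1.38-fold across all 15 libraries. It had 63.7 and 62.5 CPM in TPA libraries, against 46.0, 52.1 and 50.5 CPM in control libraries, without overlap. The difference was small, 0.35 ± 0.19 (adjusted p = 0.421), and of like size in set B (0.29) and set C (0.31). TPA+H89 libraries kept to the same range at 62.7 and 60.3 CPM, while H89 libraries had 50.9, 52.9 and 51.5 CPM. EGF libraries had 63.2, 54.4 and 51.7 CPM, and EGF against control was 0.19 ± 0.17 (adjusted p = 1). ADAM17 shares 1257 exon bases on the opposite strand with IAH1, which had 21.0 to 49.6 CPM, so part of its counts may be uncertain.

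ADAM10, which sheds Notch and other receptors, showed no order by treatment. It had 202 and 119.8 CPM in TPA libraries, 176, 159 and 158 CPM in EGF libraries and 141, 154 and 220.4 CPM in control libraries. TPA against control was -0.10 ± 0.29 and EGF against control -0.06 ± 0.26 (adjusted p = 0.903 and 1). ADAM9 had 597 and 556 CPM in TPA libraries, against 351, 429.8 and 557 CPM in control libraries (0.37 ± 0.28, adjusted p = 0.541). In EGF libraries ADAM9 had 432, 348 and 394 CPM, so TPA libraries lay above all of them (TPA against EGF 0.56 ± 0.28, adjusted p = 0.391).

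ADAM12, an ADAM of mesenchymal cells, was the only member past an unadjusted p of 0.05 with EGF. It had 38.9, 39.6 and 35.9 CPM in EGF libraries, against 96.7, 45.3 and 46.2 CPM in control libraries, without overlap. EGF against control was -0.72 ± 0.28 (adjusted p = 1), and lower in every set, by -1.31 in A, -0.19 in B and -0.36 in C. Without control 1, the highest library, it was -0.25. ADAM19 had 109 and 51.0 CPM in TPA libraries, against 77.0, 41.2 and 40.9 CPM in control libraries (0.59 ± 0.49, adjusted p = 0.585). Both TPA libraries exceeded the control of their own set, by 1.40 in B and 0.32 in C. H89 libraries had 33.6, 43.8 and 95.5 CPM of ADAM19, and H89 against control was -0.29 in set B and 0.66 in set C. The set C difference with TPA was thus smaller than that with H89 alone.

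ADAM33, the most abundant ADAM by length in these cells, split by library. It had 199.6 and 845 CPM in TPA libraries, against 395, 511 and 484 CPM in control libraries, and the sets went opposite ways (-1.36 in B and 0.80 in C). TPA+H89 libraries had 131 and 399.8 CPM, lower than the TPA library of each set by -0.60 and -1.08, with a fitted difference of -0.97 ± 0.62 (adjusted p = 0.797), which became 0.42 without TPA 2. ADAM15 had 47.4 and 36.5 CPM in TPA libraries, below control libraries at 80.1, 59.9 and 62.0 CPM (-0.68 ± 0.30, adjusted p = 0.362).

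ADAMTS1, a secreted protease that cleaves aggrecan and versican, stood higher in TPA libraries than in all EGF and control libraries. It had 477 and 499 CPM in TPA libraries, against 183, 286 and 261 CPM in control libraries. TPA against control was 1.01 ± 0.29 (adjusted p = 0.209), with like values in set B (0.74) and set C (0.93). DESeq2 called it (0.98, adjusted p = 0.017) where it called 1.81% of all genes higher. Over 23 alternative settings the value ran from 0.80 to 1.12 and the adjusted p from 0.017 to 0.761.

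With EGF, ADAMTS1 had 329, 331 and 281 CPM, of which the lowest overlaps the highest control library. EGF against control was 0.37 ± 0.26 (adjusted p = 1), positive in each set (0.85 in A, 0.21 in B and 0.11 in C). EGF+H89 libraries had 270.01 and 243 CPM, below all 3 EGF libraries, and EGF+H89 against EGF was -0.29 ± 0.30 (adjusted p = 1). TPA+H89 libraries had 495 and 318 CPM, against 477 and 499 CPM in TPA libraries. TPA+H89 against TPA was -0.26 ± 0.32 (adjusted p = 0.958), with 0.05 in set B and -0.65 in set C. H89 alone gave 263, 299 and 407 CPM.

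ADAMTS5, an aggrecanase, was also higher in TPA libraries than in all EGF and control libraries. It had 145 and 93.7 CPM in TPA libraries and 118 and 84.9 CPM in TPA+H89 libraries. EGF libraries had 32.7, 62.9 and 68.0 CPM and control libraries 37.4, 78.6 and 71.1 CPM. H89 libraries ran from 61.6 to 99.0 CPM, so the highest of them exceeded TPA 2 (93.7 CPM) and TPA+H89 2 (84.9 CPM). TPA+H89 against H89 was 0.93 in set B and 0.05 in set C. The log2 fold change was 0.94 ± 0.38 in TPA against control (adjusted p = 0.339) and 1.13 ± 0.38 in TPA against EGF (adjusted p = 0.325). Without TPA 1 it was 0.57 against control. ADAMTS4, the other main aggrecanase, was at 4.99 and 2.76 CPM in TPA libraries, 3.39, 5.74 and 5.67 CPM in EGF libraries and 4.54, 3.06 and 4.08 CPM in control libraries, with overlap throughout.

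ADAMTS7, which cleaves the cartilage matrix protein COMP, was high only in TPA 2. It had 7.34 and 34.2 CPM in TPA libraries, against 7.95, 6.54 and 9.54 CPM in control libraries and 4.68, 8.96 and 8.07 CPM in EGF libraries. The fit gave 1.38 ± 0.53 against control (adjusted p = 0.32), which became -0.12 without TPA 2. TPA+H89 libraries had 3.46 and 8.37 CPM, and TPA+H89 against TPA was -1.78 ± 0.61 (adjusted p = 0.713), and -0.27 without TPA 2. ADAMTS10, which binds fibrillin microfibrils, was also highest in TPA 2, with 8.27 and 42.9 CPM in TPA libraries, against 7.47 and 13.9 CPM in TPA+H89 libraries and 27.5, 16 and 20.5 CPM in control libraries.

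ADAMTS2, ADAMTS15 and ADAMTS14 were high in both libraries of set A and in TPA 2. ADAMTS2, which removes the amino-terminal propeptide of procollagen, had 403 CPM in EGF 1 and 459.5 CPM in control 1, both of set A. The other EGF libraries had 143 and 152 CPM and the other control libraries 166 and 144 CPM, while H89 libraries had 136, 139 and 307 CPM. TPA libraries had 266 and 442 CPM, so ADAMTS2 exceeded the control of its own set in both (0.68 in B and 1.62 in C). TPA against control was 0.47 ± 0.58 (adjusted p = 0.735), and 1.14 ± 0.35 with a term for the sets (adjusted p = 0.113). ADAMTS15 had 60.7 and 94.7 CPM in EGF 1 and control 1 and 77.6 CPM in TPA 2, and 12.4 to 32.9 CPM elsewhere. ADAMTS14 showed the same libraries on top, with 11.3, 8.73 and 9.73 CPM in EGF 1, control 1 and TPA 2 and 1.28 to 3.45 CPM elsewhere. ADAMTS12 spanned 1.81-fold over all libraries, with 131 and 72.4 CPM in TPA libraries, against 131, 106 and 99.3 CPM in control libraries. For TPA against control the sets went opposite ways (0.30 in B and -0.46 in C). EGF libraries had 84.9 to 92.8 CPM, below all control libraries, and were lower in every set (-0.50 in A, -0.32 in B and -0.19 in C). ADAMTS12 was not called.

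**Figure D4:**
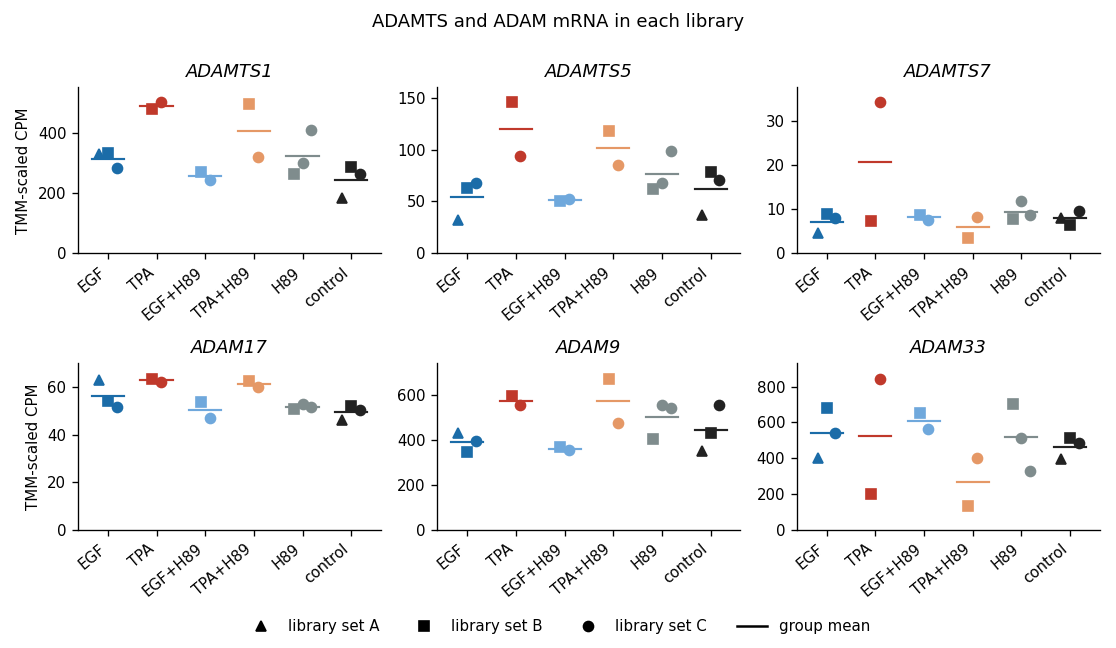
TMM-scaled CPM of ADAMTS1, ADAMTS5, ADAMTS7, ADAM17, ADAM9 and ADAM33 in each library by group, with symbols for the library set and bars for the group mean. Both TPA libraries lie above all control libraries for ADAMTS1, ADAMTS5 and ADAM17, whereas for ADAMTS7 and ADAM33 TPA 2 is the highest library of all and TPA 1 is not above the highest control.

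Several of the lowest p-values belonged to members with few counts, for which no fold is given. ADAMTS17 had 0 and 0 counts in TPA libraries, against 34, 2 and 4 counts in control libraries, where the 34 came from set A. ADAM28 had 0 and 4 counts in TPA libraries, 4 and 17 counts in TPA+H89 libraries, and 12, 2 and 17 counts in control libraries. Counts in this paragraph are not scaled to depth. The 4 counts of ADAM28 were 0.033 CPM in TPA 2 but 0.729 CPM in TPA+H89 1, its highest level in any library. MMP21 had 0, 0 and 1 counts in H89 libraries, against 3, 2 and 5 counts in control libraries. ADAM22 had 2 and 8 counts in EGF+H89 libraries, against 33, 26 and 38 counts in EGF libraries, the lowest p of any member in that comparison (adjusted p = 1). ADAM20 had 4, 12 and 18 counts in H89 libraries, against 20, 10 and 45 counts in control libraries. ADAMTS8 had the lowest p of any member in H89 against control but was not called. Its levels were 0.0783 to 0.339 CPM in H89 and 0.480 to 4.56 CPM in control libraries. ADAMTS19 had 4 to 11 counts in H89 and 1 to 113 counts in control libraries. ADAMTS16 had 2 to 3 counts in EGF+H89 and 7 to 24 counts in EGF libraries. MMP25 had 0 to 0.411 CPM in TPA+H89 and 0.713 to 1.43 CPM in TPA libraries. ADAM8 had 0 to 0.681 CPM in TPA+H89 and 1.17 to 1.57 CPM in H89 libraries.

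Members too low to test were detected mainly in 2 libraries. All 14 had at least 1 count in both EGF 1 and control 1, whereas set B libraries detected 0 to 2 of them and set C libraries 2 to 6. These 14 genes held 214 counts in the 2 libraries of set A and 139 counts in the other 13 libraries. For 10 of the 14, over 50% of all counts were in set A, and for 4 every count was. Of all 6781 untested genes, 49.8% had over 50% of their counts there. The gelatinase MMP9, the stromelysin MMP10 and matrilysin MMP7 are among these 14, so no comparison is given for them.

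**Figure D5:**
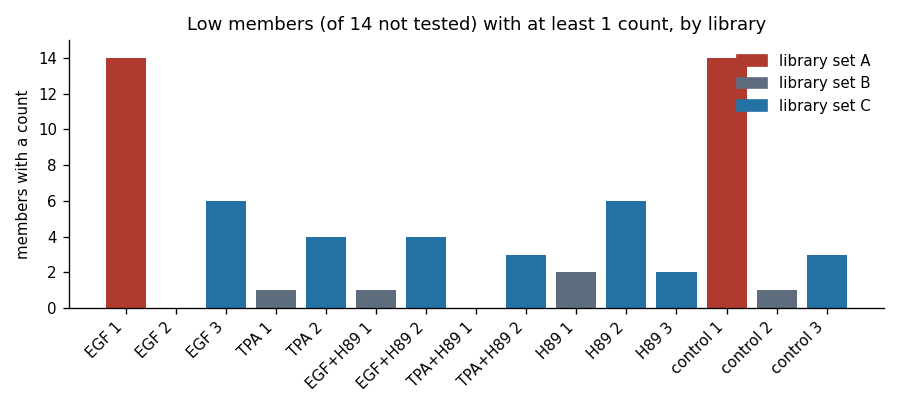
Number of the 14 untested members with at least 1 count in each library, coloured by library set. EGF 1 and control 1 detect all 14, and no other library detects more than 6.

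Genes that act on or with these proteases were counted from lists of known regulators, substrates and promoter-binding factors. None of 30 tested regulators (convertases such as FURIN, ADAM17 carriers such as RHBDF2, inhibitors such as RECK and the plasminogen system) was called in any comparison, where the share of all genes called was at most 0.415%. Among 20 tested substrates, 1 rose with TPA, where 0.388% of all genes did: HBEGF, an EGF-family ligand shed by ADAM17. It had 14.3 and 22.8 CPM in TPA libraries, against 1.85, 1.38 and 2.71 CPM in control libraries, a log2 fold change of 3.22 ± 0.61 (adjusted p = 0.0417). HBEGF was at 5.33, 6.30 and 11.5 CPM in EGF libraries, also above all control libraries (1.95 ± 0.56, adjusted p = 1, and 1.92 ± 0.37 with a term for the sets, adjusted p = 0.0458). With that term ACAN, the aggrecan core protein cut by ADAMTS enzymes, was also called in TPA against control (2.73 ± 0.61, adjusted p = 0.0343), whereas the fit without it gave -0.58 ± 1.55. ACAN had 5.08 and 14.05 CPM in TPA libraries, against 40.3, 0.900 and 1.49 CPM in control libraries, of which the highest is of set A.

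Among 14 AP-1 and ETS factors, 2 rose with TPA, where 0.388% of all tested genes did. They were JUNB, by 5.66 ± 0.87 (adjusted p = 0.0147), and ETS1, by 1.55 ± 0.25 (adjusted p = 0.0202), on the log2 scale. ETS1 had 88.2 and 113 CPM in TPA libraries, against 27.0, 31.8 and 44.2 CPM in control libraries. JUNB had 790 and 8108 CPM in TPA libraries, against 79.6, 48.6 and 136 CPM in control libraries. With a term for the library sets 7 of the 14 factors rose with TPA (FOS, FOSB, FOSL1, JUN, JUNB, JUND and ETS1). That fit called 1.25% of all genes in either direction, and 176 of 18575 genes higher. JUNB was far higher in TPA 2, the library in which MMP17, ADAMTS7 and MMP15 were also highest. ADAM33 and ADAMTS10 were highest there too, while TIMP1 and MMP3 were lowest there. TPA 2 was also the deepest library, and a link between JUNB and any of these genes was not tested. The median log2 fold change of the 14 factors in TPA against control was 1.52, against -0.02 for all tested genes and -0.06 for the 54 tested members.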

How the data were processed

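The values analysed were the deposited counts, raw reads per gene symbol for 28374 genes, as deposited by the authors. Per the labels' protocols, libraries were strand-specific and depleted of ribosomal RNA, and 3 sequencing platforms are named without being tied to samples. HOMER and the builds hg19 and GRCh37 are named per the submitters' processing notes; in the sources used here, no aligner, annotation version or strand setting is given. Control samples 3 and 4 were identical and entered once.

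Tests used edgeR 4.0.16 in R 4.3.3 with quasi-likelihood F-tests, TMM scaling, filterByExpr with a smallest count of 10 (18575 genes kept), all 6 groups in 1 fit and Benjamini-Hochberg adjustment over all tested genes at 0.05. Log2 fold changes and their SEs were taken from that fit; levels are TMM-scaled CPM. DESeq2 1.42.0, other scaling and filters, a term for library sets, only the compared groups, both control copies and leaving out libraries were alternatives. Library sets were read from the rRNA share, with a limit of 10%, and are not in the labels. Scripts were tested on simulated data.

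Members named with values were those called in any comparison, the 12 of highest control level, a fixed list of well-known members and the 5 of lowest p in each comparison; MMP11, MMP15, MMP16 and MMP19 were added after their values were seen. Members and gene lists were chosen with earlier results of these data known. Promoter windows are from RefSeq on GRCh38.p14, and exon lengths from GENCODE release 29; no coordinates of the deposited counts were used.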

Additional observations from a re-analysis of the deposited data

How the results depend on the processing

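The members called numbered 0 in each of the 10 comparisons under edgeR with other scaling, other filters, both control copies, only the compared groups, a term for the library sets, and without control 1, EGF 1 and TPA 2 together. DESeq2 called 1 member higher (ADAMTS1) and 1 lower (TIMP1) in TPA against control and 1 lower (TIMP1) in TPA against EGF. Leaving out each library in turn, the count of members called in TPA against control ranged from 0 to 2 higher and 0 to 1 lower, in TPA+H89 against TPA from 0 to 3 lower, in TPA against EGF from 0 to 3 higher and 0 to 1 lower, and in the interaction of TPA and H89 from 0 to 1 lower. Every nonzero count came from leaving out TPA 1, which leaves TPA 2 as the only TPA library, assumed to vary like the other groups; the genes were TIMP1, MMP17, ADAMTS7, ADAMTS10 and MMP15. Without TPA 1, 59 members were tested, and the share of all genes called was 4.52% higher and 1.41% lower in TPA against control, 2.73% lower in TPA+H89 against TPA, 4.41% higher and 1.41% lower in TPA against EGF and 0.484% lower in the interaction. Signs turned for ADAMTS7 in TPA against control (-0.12 without TPA 2 and -0.14 without control 1, EGF 1 and TPA 2) and in TPA against EGF (-0.21 without the 3 libraries), and for ADAMTS10 in TPA+H89 against TPA (0.39 without TPA 2 and 0.41 without the 3 libraries); the cause was not tested. Leaving out single libraries, ADAMTS7 in TPA against control ranged from -0.12 to 2.07 and ADAMTS10 in TPA+H89 against TPA from -1.97 to 0.39. These signs, and 1115 values that kept direction and side of the threshold with 11 that passed it, are for the 5 members of lowest p in each comparison. Among the other values, without TPA 2 MMP17 turned to -0.38 in TPA against control and ADAM33 to 0.42 in TPA+H89 against TPA, TIMP1 turned to -0.03 in TPA+H89 against TPA without TPA+H89 2, and MMP3 in TPA against control ranged from -2.99 to 0.72 over all settings; values near 0 turned as well. The median of all genes in TPA against control moved to -0.17 with no filter, -0.24 without TPA 1 and -0.19 without TPA 2, against -0.02 in the reported fit. No paired analysis was run because sample names carry a running number and no replicate number shared between groups. The labels do not say whether samples with consecutive numbers share a culture or day. The term for library sets is a technical term read from the counts, not a replicate number. Depth limits the low members most: TPA+H89 1 has 7527026 counts in all.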
